A study of Homo sapiens with 8 samples.

Results

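Cells of OPM-2, an established line from human multiple myeloma with the t(4;14) rearrangement, were kept for 72 h in DMSO, the solvent control, or in 1 µM all-trans retinoic acid (ATRA) together with 1 µM pomalidomide (POM). Chromatin immunoprecipitation followed by sequencing gave 1 list of peaks for each treatment, and every peak on chromosomes 1 to 22 and X was assigned to a class. A peak was shared if it overlapped a peak of the other list by at least 1 bp. A gained peak was an ATRA+POM peak without such an overlap, and a lost peak was a DMSO peak without one. Of 98139 peaks in both lists, out of 189160 in the 4 lists of the series, 11367 were gained and 22460 were lost. The shared peaks numbered 35826 on the ATRA+POM side and 28486 on the DMSO side. The series describes its peaks as binding of transcription factors and names none. The antibody is not given in the sources used here, so a peak is read only as a place where immunoprecipitated fragments piled up, and not as a named factor, a histone mark or expression. There was 1 ChIP library a side, from 1 cell line, so a difference between the lists cannot be told apart from a difference between libraries, and intervals cover counting error only.

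Retinoic acid binds the receptors RARA, RARB and RARG, which sit on DNA together with RXR partners. The pair recognises repeats of a short hexamer, and binding of the ligand exchanges corepressors for coactivators. Enzymes of the CYP26 family degrade retinoic acid, DHRS3 reduces retinal to retinol, and several of these genes are themselves textbook targets of the ligand. Pomalidomide binds cereblon (CRBN), the substrate receptor of a ubiquitin ligase, which then degrades the lymphoid transcription factors IKZF1 and IKZF3. Myeloma cells depend on IRF4 and MYC and keep the plasma cell programme of PRDM1 and XBP1.

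Sequences upstream of gene starts are shown here because gained and lost peaks covered promoters of different base composition, as described further on. The 250 bases before an annotated start were taken from RefSeq promoters (GRCh38.p14, in the coordinates of hg38), and each is printed 5′ to 3′ on the gene's own strand. In the first set the capitals mark the CpG dinucleotides. CD1D (chr1:158179697-158179946, plus strand) and GCNT3 (chr15:59611533-59611782, plus strand) were covered by a gained peak and hold 2 CpG each. MCM6 (chr2:135876444-135876693, minus strand) was covered by a lost peak and holds 24. CRBN (chr3:3179692-3179941, minus strand) holds 27, and its lost peak ended 0.015 kb short of these bases, just downstream of the start. Covered means any overlap, here and below. The peaks of CD1D (chr1:158178525-158179772) and MCM6 (chr2:135876642-135876899) reached only part of the printed bases. The marked CpG of CD1D lie outside its peak. Another start window of CD1D, with 12 CpG in 300 bases, had no peak in either list.
CD1D: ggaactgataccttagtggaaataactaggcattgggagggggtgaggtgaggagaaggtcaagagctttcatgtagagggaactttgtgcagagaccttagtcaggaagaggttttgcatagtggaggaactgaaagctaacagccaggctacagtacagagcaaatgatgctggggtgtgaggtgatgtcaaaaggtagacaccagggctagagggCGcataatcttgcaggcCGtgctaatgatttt
GCNT3: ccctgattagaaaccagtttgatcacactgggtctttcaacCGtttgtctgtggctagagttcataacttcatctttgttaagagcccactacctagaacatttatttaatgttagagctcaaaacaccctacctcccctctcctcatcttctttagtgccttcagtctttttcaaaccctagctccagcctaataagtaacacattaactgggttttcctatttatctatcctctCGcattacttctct
MCM6: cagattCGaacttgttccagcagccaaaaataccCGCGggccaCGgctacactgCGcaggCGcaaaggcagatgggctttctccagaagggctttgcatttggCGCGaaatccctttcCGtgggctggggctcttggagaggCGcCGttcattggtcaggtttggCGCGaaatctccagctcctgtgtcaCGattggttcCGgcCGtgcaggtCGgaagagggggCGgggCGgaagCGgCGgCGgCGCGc
CRBN: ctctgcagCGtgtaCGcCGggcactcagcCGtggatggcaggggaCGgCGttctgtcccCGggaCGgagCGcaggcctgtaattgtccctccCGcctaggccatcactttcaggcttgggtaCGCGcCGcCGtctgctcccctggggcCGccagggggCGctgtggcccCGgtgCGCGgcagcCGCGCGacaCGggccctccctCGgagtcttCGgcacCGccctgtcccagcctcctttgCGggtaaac

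In the second set the capitals mark hexamers of retinoic acid receptors on either strand: AGGTCA, or the same letters with G at the first base, T at the third base or both. All 3 windows hold 2 such hexamers in tandem, and RARB holds 1 more. RARB (chr3:25428013-25428262, plus strand) and CYP26A1 (chr10:93073643-93073892, plus strand) have the repeat spaced by 5 bases, and DYRK4 (chr12:4567583-4567832, plus strand), which encodes a protein kinase, has it spaced by 2.
RARB: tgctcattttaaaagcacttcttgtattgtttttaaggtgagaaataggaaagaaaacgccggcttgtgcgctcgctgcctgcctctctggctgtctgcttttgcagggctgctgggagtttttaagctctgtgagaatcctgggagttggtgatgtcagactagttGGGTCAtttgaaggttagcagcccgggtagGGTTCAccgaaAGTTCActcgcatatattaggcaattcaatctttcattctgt
CYP26A1: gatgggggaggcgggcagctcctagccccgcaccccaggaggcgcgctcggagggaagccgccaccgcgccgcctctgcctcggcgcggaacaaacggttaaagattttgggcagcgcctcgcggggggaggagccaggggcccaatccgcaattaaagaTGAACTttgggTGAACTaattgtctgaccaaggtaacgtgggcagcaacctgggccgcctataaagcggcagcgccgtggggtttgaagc
DYRK4: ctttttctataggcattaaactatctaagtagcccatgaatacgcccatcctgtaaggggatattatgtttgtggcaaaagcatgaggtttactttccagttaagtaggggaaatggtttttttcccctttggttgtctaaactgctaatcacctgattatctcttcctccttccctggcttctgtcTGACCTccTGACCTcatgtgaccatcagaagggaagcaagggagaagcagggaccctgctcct
The DYRK4 window lay under a gained peak of 130 summit reads. No peak of either list covered the RARB or the CYP26A1 window. The nearest ATRA+POM peak was 22.3 kb away at RARB and 1.63 kb away at CYP26A1, where it is described further on. These matches are letters in a window and not shown to be bound.

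Gained peaks were 24.1% of the ATRA+POM list (95% Wilson interval 23.7 to 24.5) and lost peaks were 44.1% of the DMSO list (43.7 to 44.5). The shorter list thus held fewer private peaks, both in number and as a share. The ATRA+POM library was somewhat shallower, at 0.902 of the depth of DMSO by the background values of the lists, and its 47193 peaks covered 30.8 Mb against 43.6 Mb for 50946 DMSO peaks. The part of depth in the number of lost peaks was not tested.

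Both private classes were weak. The reads at the summit, recovered from the fold enrichment and p of each peak, had a median of 46 in gained and 45 in lost peaks. Shared peaks had medians of 74.5 reads on the ATRA+POM side and 145 on the DMSO side. Ranked by −log10 q into 8 equal groups, 79.7% of the weakest DMSO peaks were lost and 2.53% of the strongest. Among ATRA+POM peaks 36.7% of the weakest and 6.51% of the strongest were gained. In the top group the gained share was therefore above the lost share, with 384 gained against 161 lost peaks.

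**Figure D1:**
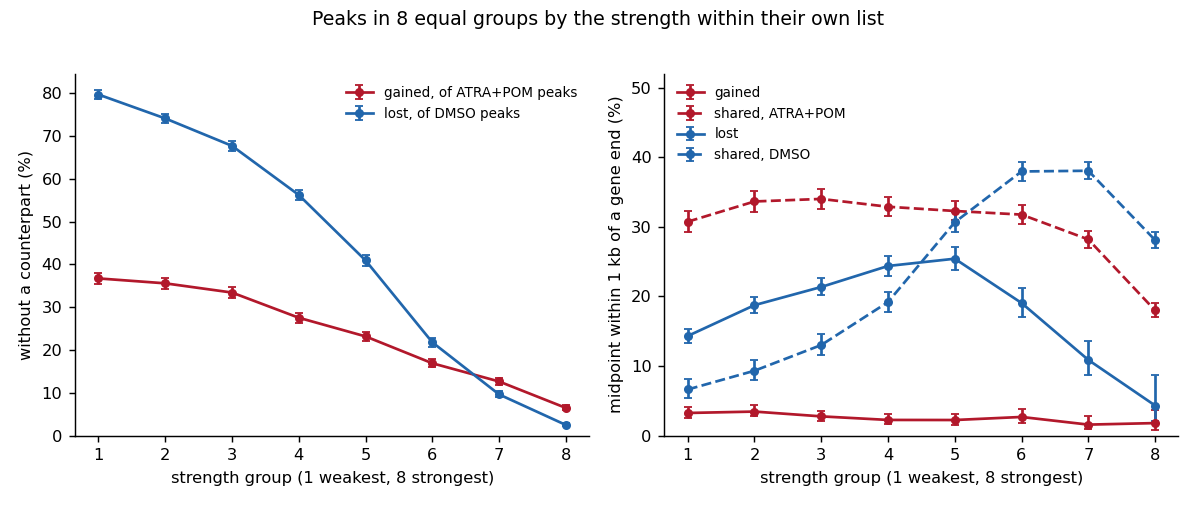
Left, percentage of peaks without a counterpart in the other list; right, percentage of peaks whose midpoint lay within 1 kb of a gene end; both against 8 equal groups of peaks by −log10 q within their own list, with 95% Wilson intervals. The lost share went from 79.7% in the weakest group to 2.53% in the strongest, and gained peaks lay below 4% at gene ends in each group.

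Gained peaks were far from gene ends. Of gained peaks 2.75% (2.47 to 3.07) had their midpoint within 1 kb of either end of an annotated protein-coding gene, against 19.6% of lost peaks (19.1 to 20.2). The share was 29.7% for shared peaks on the ATRA+POM side and 28.1% on the DMSO side. Both ends of a gene were used because starts were given for only 79.2% of 19974 genes. Where starts were given, 2.03% of gained, 17.4% of lost and 27.9% of ATRA+POM shared peaks lay within 1 kb of one, and 0.968%, 1.84% and 2.19% lay at the far end. The place that lost and shared peaks favoured was thus the start.

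The median distance to a gene end was 52.1 kb for gained, 20.8 kb for lost and 8.59 kb for shared ATRA+POM peaks. More than 100 kb from any gene end lay 35.4% of gained, 23.8% of lost and 17.1% of shared ATRA+POM peaks. Gained peaks were also the class least often inside a gene body, at 45.2% against 56.6% of lost and 61.4% of shared ATRA+POM peaks. On the ATRA+POM side the order was the same in each of the 8 strength groups. In the weakest group 3.27% of gained and 30.7% of shared peaks lay at a gene end, and in the strongest group 7 of 384 and 993 of 5515 did. For DMSO peaks the order depended on strength. In the weakest group 14.3% of lost and 6.65% of shared peaks lay at a gene end, and in the strongest group 4.35% and 28.1% did. Lost peaks at gene ends were thus mainly peaks of low to middle strength, as were lost peaks in general. When only the stronger 50% of each list was compared, lost peaks passed shared ones at gene ends, with 33.0% against 30.5%. In that setting a DMSO peak also counts as lost when its counterpart fell in the weaker 50%. With the full lists, lost peaks lay below shared DMSO peaks in each of groups 5 to 8. In group 5 the shares were 25.4% and 30.7%.

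**Figure D2:**
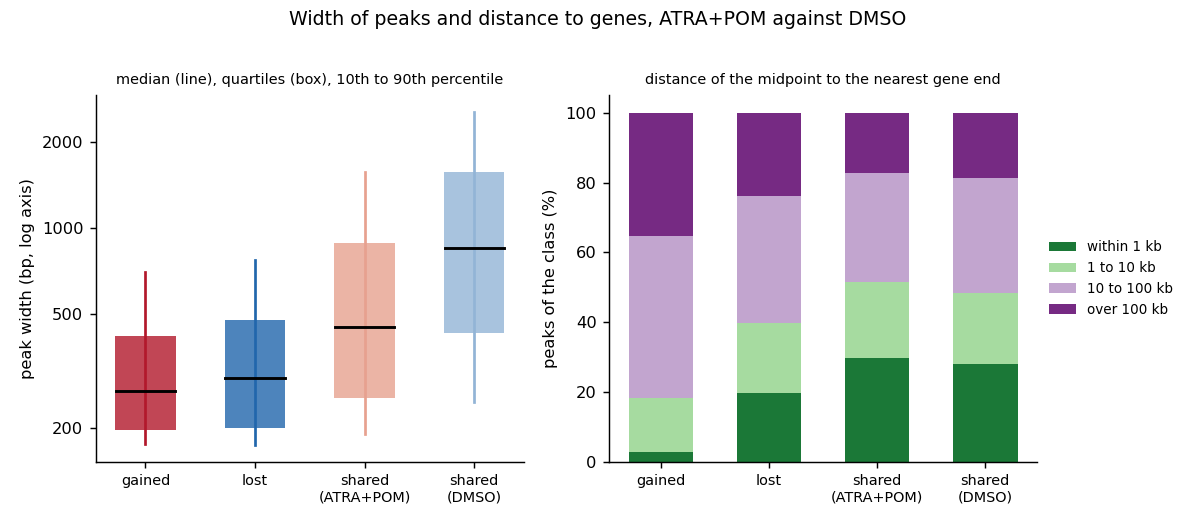
Left, peak width in bp on a log axis for gained, lost and shared peaks (line, median; box, quartiles; whisker, 10th to 90th percentile); right, percentage of each class by distance of its midpoint to the nearest gene end. Private peaks had medians of 271 and 301 bp, and 2.75% of gained against 19.6% of lost peaks lay within 1 kb of a gene end.

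Private peaks were narrow, and shared regions were narrower with ATRA+POM than with DMSO. The median width was 271 bp for gained and 301 bp for lost peaks, while shared peaks had a median of 453 bp with ATRA+POM and 850 bp with DMSO. Peaks of 1 kb or more made up 4.26% of gained, 5.53% of lost, 21.0% of shared ATRA+POM and 43.2% of shared DMSO peaks. In 20298 pairs that matched 1 to 1, the median width was 447 bp with ATRA+POM and 684 bp with DMSO, and the ATRA+POM peak was the narrower in 75.9%. Another 6497 DMSO peaks broke into 14831 ATRA+POM peaks, while 921 ATRA+POM peaks joined several DMSO peaks.

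The DMSO peak that broke into the most pieces had its midpoint 5686 bp from the nearest end of RHOF (chr12:121794456-121804291), which encodes a small GTPase, and overlapped 9 ATRA+POM peaks. DMSO peaks near CEP70 and EIF4A2, a centrosome protein and a translation initiation factor, each broke into 8. The widest shared regions stayed long in both lists. At PRDM1, the master regulator of plasma cells, the peak was 26.9 kb with DMSO (chr6:106083476-106110346) and 22.6 kb with ATRA+POM (chr6:106086391-106108980). At TENT5C, a poly(A) polymerase that is often mutated in myeloma, it was 27.8 kb and 20.6 kb. The third lay beside the centromere of the X chromosome, 285 kb from ZXDA by its ATRA+POM midpoint, with 32.3 kb and 19.0 kb. Regions near centromeres were not filtered out here, so it is not read as an ordinary region. All 3 were wider with DMSO. The widest private peaks were much shorter, at 4.81 kb for the lost peak near KCNA3, a potassium channel gene, and 3.78 kb for the gained peak inside MMP16, a metalloproteinase gene.

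Shared peaks at gene ends had lower ratios of ATRA+POM to DMSO than shared peaks elsewhere. The log2 ratio of the authors' fold enrichment, ATRA+POM over DMSO, was taken at 15909 pairs with summits within 100 bp. Its median was −0.50 (quartiles −1.10 to 0.14), and 29.8% of pairs were above 0. Within 1 kb of a gene end the median was −0.85 over 4565 pairs, with 12.2% above 0, and farther away it was −0.31 over 11344 pairs, with 36.8% above 0. The gap between these places was present at each level of strength. In 4 equal groups by mean log2 fold, the medians at gene ends were −0.54, −0.92, −0.98 and −0.74, and those farther away −0.17, −0.39, −0.47 and −0.37. Fold enrichment is relative to each library's own background and was not scaled between libraries, so only differences from the overall median are read.

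**Figure D3:**
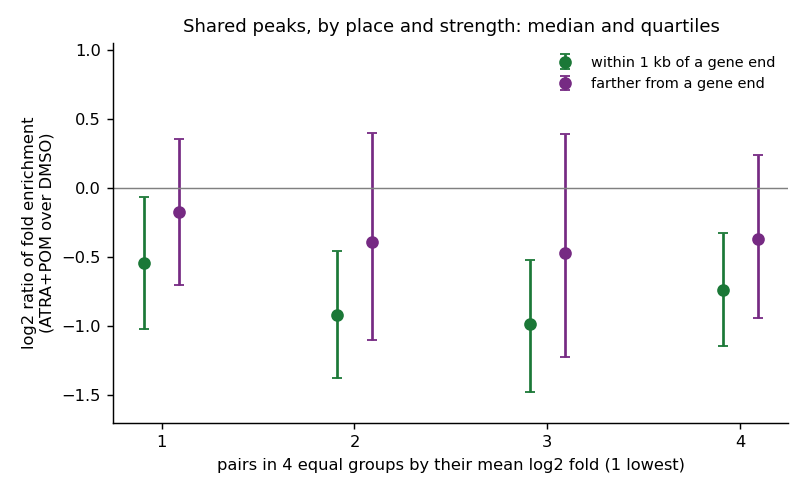
Log2 ratio of fold enrichment (ATRA+POM over DMSO) at shared peaks with summits within 100 bp, in 4 equal groups by the mean log2 fold of the pair; points are medians and bars quartiles. Pairs within 1 kb of a gene end had lower medians than the others in each group, from −0.98 to −0.54 against −0.47 to −0.17.

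Single shared regions departed far from that median. Among 5275 pairs with at least 100 reads in both lists, the highest ratio was inside LRRC4C (chr11:40542675-40545374), which encodes a synaptic adhesion protein. Its fold enrichment was 6.69 with DMSO and 80.2 with ATRA+POM, a log2 ratio of 3.58. Pairs nearest to MOXD1, TMCC3, EIF3M and GDAP1 followed, with log2 ratios of 3.07, 2.62, 2.48 and 2.48. At the other end stood a region 318 kb from STT3B, with 64.4 with DMSO and 4.63 with ATRA+POM, a log2 ratio of −3.80. The next lowest, near NEBL, TSEN15, CCSER1 and DYNLRB2, ran from −3.54 to −3.11. Of these 10 regions only the one at TSEN15, which encodes a subunit of the tRNA splicing endonuclease, lay within 1 kb of a gene end. Its peak was 369 bp away and had 1952 summit reads with DMSO and 140 with ATRA+POM.

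The promoters that gained a peak were poor in CpG, and those that lost one were rich. Of 21983 windows of 300 bases around annotated starts (250 before to 50 after), 29.2% were overlapped in both lists and 56.3% in neither. A gained peak covered 79 windows of 76 genes, and a lost peak covered 2006 windows of 1763 genes without any ATRA+POM overlap. A further 1103 windows were reached by the wider DMSO member of a shared peak alone, and 10 by the wider ATRA+POM member. The median number of CpG in a window was 4 (quartiles 2.5 to 9) under gained peaks and 31 (22 to 38) under lost peaks, against 25 (18 to 31) where both lists had a peak. It was 21 over all windows and 11 (4 to 27) over windows with a peak in neither list. A gain is possible only where DMSO had no peak, so for gained peaks the windows with neither are the closer comparison. The median GC content was 51.0% under gained, 69.3% under lost and 63.3% under shared overlap, and 59.0% with a peak in neither list. In the 250 bases printed above, CD1D held 48.4% GC and MCM6 62.8%. MCM6 thus lay below the median of windows under lost peaks.

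Some motif letters also differed in share between windows under gained and under lost peaks. The GC box GGGCGG was in 27.8% of windows under gained peaks (interval 19.2 to 38.6), in 79.2% under lost peaks (77.3 to 80.9) and in 56.2% of all windows. The ETS-like letters AAGGAA were in 39.2% (29.2 to 50.3), 13.7% (12.2 to 15.2) and 21.1%. The AP-1 letters TGACTCA were in 8 of 79 windows under gained peaks (10.1%, interval 5.22 to 18.7), in 1.84% under lost peaks and in 4.02% of all. The receptor hexamer AGGTCA was in 12.7% (7.02 to 21.8) under gained peaks, an interval that holds the 11.9% of all windows, and in 8.37% under lost peaks. A direct repeat of the receptor hexamers with a spacing of 1, 2 or 5 bases was in 2 of the 79 windows, DYRK4 among them, and in 0.241% of all. In windows with a peak in neither list the shares were 45.2% for GGGCGG, 23.1% for AAGGAA, 5.20% for TGACTCA and 13.8% for AGGTCA. The interval of TGACTCA under gained peaks begins at 5.22, just above that value. Both strands were searched, and none of these words contains another. The part of base composition in the motif shares was not tested.

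At gene ends, losses outnumbered gains. By the midpoint of the peak, 485 of 19974 genes had a gene-end peak with ATRA+POM alone (2.43%) and 1793 with DMSO alone (8.98%). However, 334 of the 485 had a wide DMSO peak that reached the window with its midpoint outside. With any overlap of the 1 kb window counted instead, a rule chosen after these counts were seen, 179 genes had a peak with ATRA+POM alone (0.896%) and 1685 with DMSO alone (8.44%), which is 17.3% of the 9756 genes that had one with DMSO. The genes with a peak in both lists numbered 8071. A gain was possible only outside the 9756 genes, which the total behind the 0.896% includes. This overlap rule is used for all gene-end peaks from here on. Genes that had one with DMSO alone had a median of 51 summit reads there, against 232 with DMSO for genes that had one in both.

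The 5 strongest gains by summit reads were at DOK5 (529 reads), an adaptor of receptor kinases, SMIM42 (506), KDM3A (455), a histone demethylase, CD1D (406), which presents lipids to natural killer T cells, and TIMD4 (376), a phosphatidylserine receptor. The locus of CD1D, the gene body with 5 kb on each side, had no peak at all with DMSO and 2 with ATRA+POM. The 5 strongest losses were at IKZF1 (1110 reads), TSPOAP1 (997), LRRN3 (943), UBE2E1 (926) and FZD2 (849), a Wnt receptor. Only the peak at FZD2 was itself lost. The peaks of the other 4 were shared, and their ATRA+POM counterparts lay outside the 1 kb window, with 775, 247, 146 and 610 reads in the same order. At IKZF1 the DMSO peak (chr7:50304309-50313442, 9134 bp) reached the window of the gene start, and its shared ATRA+POM counterpart (chr7:50304676-50312824, 8149 bp, 775 reads) began just beyond it. A promoter window of IKZF1 farther inside the gene was covered in both lists. Over all 1685 genes the strongest gene-end peak was itself lost at 1555 (92.3%) and shared at 130, and over the 179 genes with a gain it was itself gained at 170. The strongest peaks that were themselves lost were at FZD2, TMEM9 (671 reads), NTN5 (606) and a peak of 431 reads beside both CENPM and SMIM45. FZD2 had no ATRA+POM peak at its locus.

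Loci with fewer peaks also outnumbered those with more, by a smaller margin. Of all genes 4106 had more locus peaks with ATRA+POM (20.6%) and 6008 had fewer (30.1%). Of the 179 genes with a gained gene-end peak, 109 had no DMSO peak at the locus, and of the 1685 with a lost one, 931 had no ATRA+POM peak there. The number of locus peaks also goes up where a shared DMSO peak is called as several ATRA+POM peaks, so the gained and lost peaks of a list are given beside it. Over all genes these were 6083 gained and 17857 lost, a peak counting once for each locus it touches. The lists of genes that follow are read against these values, and each comes from 1 library.

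**Figure D4:**
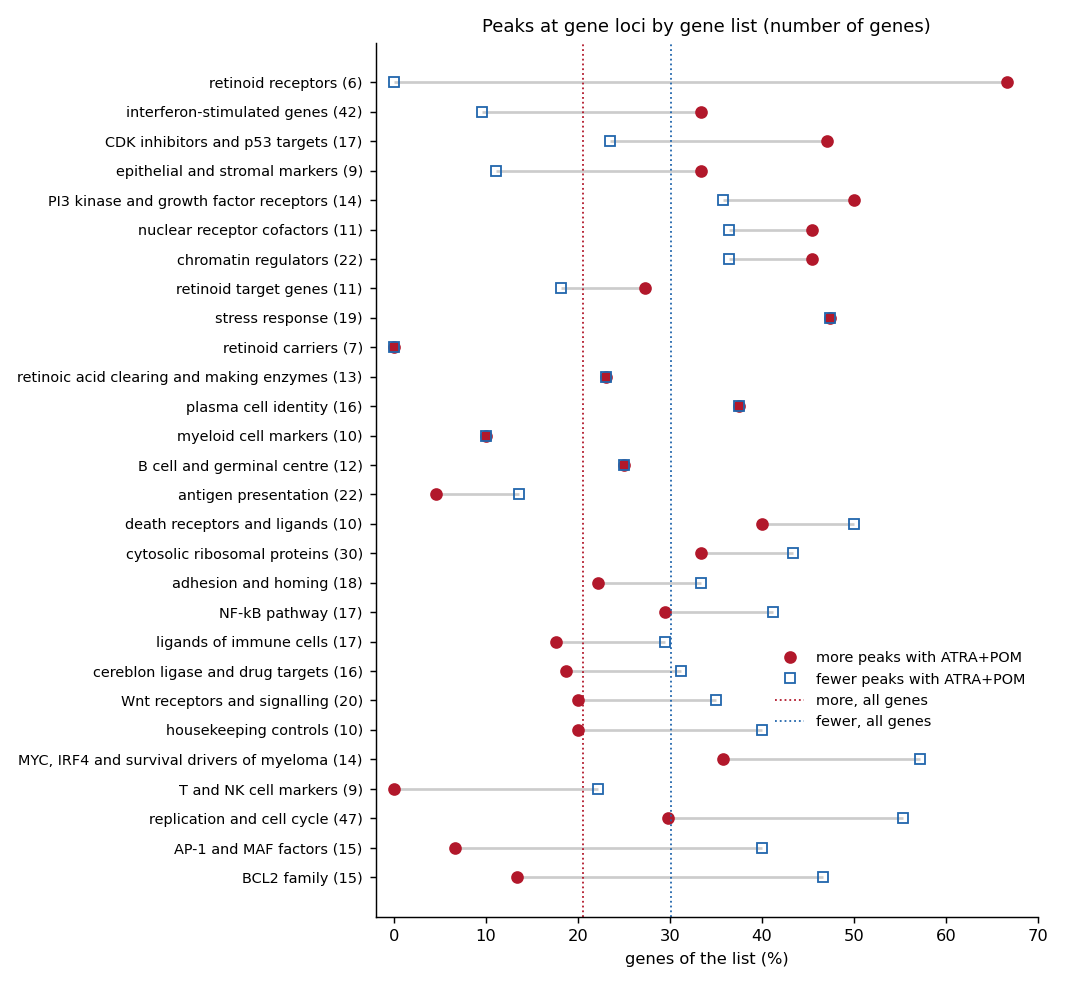
Percentage of the genes of each list with more (filled circles) or fewer (open squares) locus peaks with ATRA+POM than with DMSO, beside the number of genes in the list; dotted lines give all genes, 20.6% and 30.1%. Lists are ordered by the difference of both percentages, from retinoid receptors (66.7% and 0%) at the top to the BCL2 family (13.3% and 46.7%) at the bottom.

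Retinoid receptor loci held more peaks, with nearly equal numbers gained and lost. Of 6 receptor genes 4 had more, none had fewer, and 2 had equal numbers, with 46 peaks with DMSO and 59 with ATRA+POM in all. The list had 16 gained and 15 lost peaks, so most of the difference lay in shared peaks called in more pieces. RARG went from 7 peaks to 13, RARB from 18 to 22, RARA from 13 to 15 and RXRA from 7 to 8. RARG gained 4 peaks and lost none, RARA gained 2 and lost 6, and RXRA gained none and lost 1. The POM list alone had 11 peaks at RARG, 23 at RARB, 10 at RARA and 11 at RXRA, and the ATRA list 5, 13, 8 and 5. RARB gained 9 peaks and lost 7, and none of the gained ones covered its repeat-bearing start. The strongest ATRA+POM peak at RARB (chr3:25404075-25405737, 765 reads, fold 52.6) was shared with a DMSO peak of 245 reads and fold 16.1. At RARA the strongest DMSO peak (chr17:40317312-40318146) had 530 reads and its ATRA+POM counterpart 71. Gene-end peaks were called at 2 of the 6 receptor genes, and both were kept. RXRB had no peak in either list.

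Among the enzymes that clear or make retinoids, 3 of 13 genes had more locus peaks and 3 had fewer. DHRS3, which lowers the supply of retinal, had 0 peaks with DMSO and 5 with ATRA+POM, the strongest of 105 reads at chr1:12620087-12620603, 2135 bp from the gene's end. CYP26B1 had 0 and 2. At CYP26A1, the main retinoic acid hydroxylase and a classical target of the ligand, the number stayed at 1 while the size of the peak differed. With DMSO it was 275 bp wide with 45 reads and a fold of 4.16 (chr10:93078395-93078669), and with ATRA+POM it was 3546 bp wide with 396 reads and a fold of 44.3 (chr10:93075518-93079063), over the gene and its downstream side. At the neighbouring CYP26C1 a shared peak had 31 reads with DMSO and 174 with ATRA+POM. DHRS9, a retinol dehydrogenase, lost both of its DMSO peaks, of 103 and 100 reads. ALDH1A1, which makes retinoic acid, had no peak in either list.

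EXOC6B, an exocyst gene next to CYP26B1, had 3 locus peaks with DMSO and 15 with ATRA+POM, of which 14 were gained. The strongest was 3397 bp wide with 569 reads and a fold of 64.7 (chr2:72202691-72206087). The lists of POM alone and of ATRA alone held no peak at that locus, nor at CYP26B1. They held 4 and 0 peaks at DHRS3 and 2 and 0 at CYP26A1. Any comparison of those lists with DMSO would share the DMSO library used here, so their values are only set side by side. Absence from the ATRA list carries little weight here and below, because that list was the shortest and had the lowest median of recovered summit reads.

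None of the 7 retinoid carriers had more or fewer locus peaks with ATRA+POM. Of 11 genes known as retinoid targets in other cell types, 3 had more and 2 had fewer. MEIS1, a homeobox gene, went from 8 peaks to 12 and TGM2, a transglutaminase, from 0 to 2. HOXB1, a homeobox gene with a classical retinoic acid response element, had no peak in either list. Among the 11 nuclear receptor cofactors, 5 had more and 4 had fewer, with 60 peaks in each list. The corepressor NRIP1 went from 4 to 7, and its strongest ATRA+POM peak had 651 reads where the DMSO counterpart had 156. NCOA1, NCOA2, HDAC3 and CREBBP had a gene-end peak with DMSO alone, so 4 of the 11 genes that had one lost it (36.4%), the background being 17.3%.

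**Figure D5:**
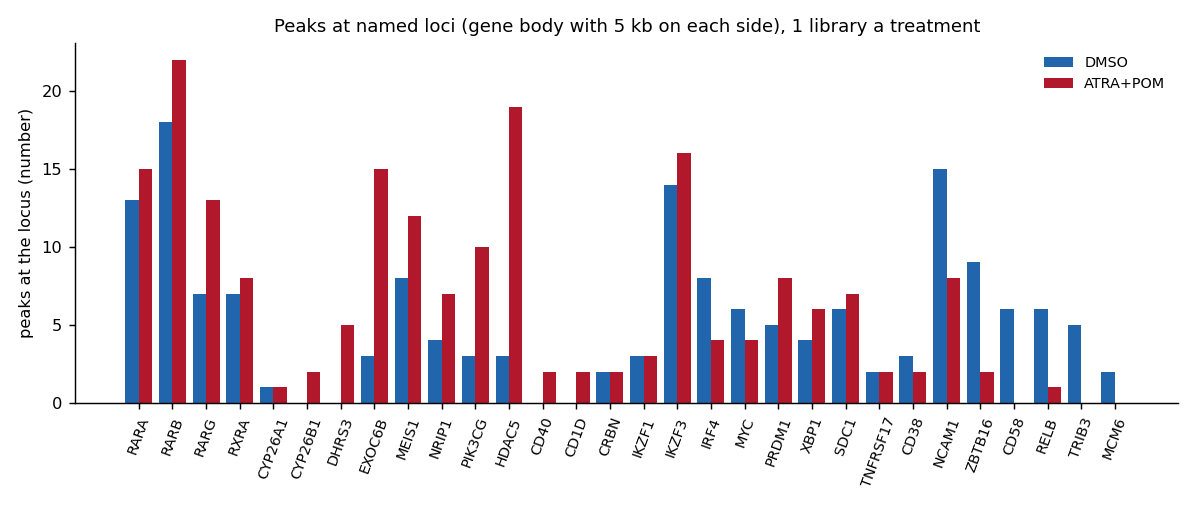
Number of peaks at named loci (gene body with 5 kb on each side) in the DMSO and ATRA+POM lists, 1 library each. RARG, DHRS3, EXOC6B, PIK3CG and HDAC5 had more with ATRA+POM, and IRF4, NCAM1, ZBTB16, CD58, RELB and TRIB3 had fewer.

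The cereblon pathway was near the background. Of 16 genes 3 had more locus peaks and 5 had fewer, and 2 of 13 lost the gene-end peak. CRBN lost the peak at its start (46 reads, fold 13.3, chr3:3178971-3179676), while the locus kept 2 peaks through a gained one inside the gene. IKZF1 had 3 peaks in both lists, and IKZF3 had 14 and 16. The strongest IKZF3 peak had 1050 reads and a fold of 67.1 with DMSO and 796 reads and a fold of 77.2 with ATRA+POM, so reads and fold differed in direction. ZBTB16, a zinc finger factor that the ligase also degrades with the drug, went from 9 locus peaks to 2, and its strongest DMSO peak (794 reads) was lost.

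Plasma cell genes kept their gene-end peaks. All 12 of 16 genes with a gene-end peak with DMSO had one with ATRA+POM, and as many had more locus peaks as had fewer, 6 each. The list had 2 gained and 28 lost peaks, so the loci with more peaks were mainly those where shared peaks were called in more pieces. PRDM1 went from 5 to 8 peaks with 1 gained and 2 lost, and XBP1 from 4 to 6 with none gained or lost. SDC1, the surface marker CD138, went from 6 to 7, also with none gained or lost, and TNFRSF17, the myeloma target BCMA, stayed at 2. In strength both were lower with ATRA+POM. The strongest DMSO peak at SDC1 had 818 reads and its counterpart 284. Over the annotated starts of SDC1 the peaks had 460 reads with DMSO, against 24 and 34 with ATRA+POM. The main TNFRSF17 peak went from 1239 reads and a fold of 94.5 to 747 reads and a fold of 42.2. IRF4 went from 8 to 4, and its main peak changed from 476 reads and a fold of 31.3 to 167 reads and a fold of 20.6. MYC went from 6 to 4, with 97 reads at the strongest DMSO peak and 26 in its counterpart. At shared peaks as a whole the median log2 ratio was −0.50 for fold and −0.77 for summit reads, so a drop alone is not particular to any of these genes. CD38, a target of antibody therapy, had the opposite change in strength, from 314 to 526 reads at its main peak.

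Defining markers of other cells were mostly without gene-end peaks in both lists, with all 10 plasma cell markers present. B cell markers stood at 4 of 7 in each list, myeloid markers at 1 of 7 in each, T and NK cell markers at 1 of 9 with DMSO and 0 with ATRA+POM, and epithelial and stromal markers at 0 and 1 of 7. NCAM1, the NK cell and myeloma adhesion protein CD56, went from 15 locus peaks to 8 and lost its gene-end peak of 84 reads. COL1A1, a collagen gene, had no DMSO peak and 2 ATRA+POM peaks of up to 28 reads.

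Interferon-stimulated genes more often had more locus peaks than fewer, while gained and lost peaks were equal in number. Of 42 genes 14 had more (33.3%) and 4 had fewer (9.52%), against 20.6% and 30.1% of all genes. The list had 11 gained and 11 lost peaks, and 45 peaks with DMSO against 53 with ATRA+POM, so the difference lay in shared peaks called in more pieces. Gene-end peaks balanced out, with 3 gained and 3 lost. RIGI, a sensor of viral RNA, gained one of 128 reads (chr9:32526326-32526616) just outside the gene, IFI6 one of 69 reads and IFIT3 one of 30. ISG20, GBP2 and EIF2AK2 lost peaks of 78, 42 and 33 reads. Of these 6 peaks only that of RIGI had over 100 reads.

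Genes by which immune cells see a tumour cell moved both ways. Gained gene-end peaks were at CD1D, at CD40 (85 reads), a costimulatory receptor, at MICA (23 reads), a ligand of the NK receptor NKG2D, and at TNFSF10 (45 reads), the death ligand TRAIL. Lost ones were at HLA-B (27 reads), TNFSF9 (47), PVR (33) and CD58 (53), an adhesion partner of T cells whose locus went from 6 peaks to 0. Over the 22 antigen presentation genes 1 had more locus peaks (4.55%) and 3 had fewer (13.6%). Both lie below the shares of all genes, 20.6% and 30.1%. Over the 17 ligands of immune cells 3 had more (17.6%) and 5 had fewer (29.4%), near those shares. IDO1, the tryptophan-degrading enzyme, had no DMSO peak and 1 ATRA+POM peak of 358 reads.

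Most of the proliferation and survival lists had more genes with fewer peaks than with more, which is also the direction of all genes (30.1% fewer, 20.6% more). Of 47 replication and cell cycle genes 26 had fewer (55.3%) and 14 had more (29.8%). Of those with a DMSO gene-end peak 5 lost it (11.1%), below the 17.3% of all genes. BIRC5, an inhibitor of apoptosis at mitosis, lost a peak of 182 reads, MCM6, a subunit of the replicative helicase, one of 172 reads and E2F1 one of 149. Both percentages lie above those of all genes, and with DMSO 45 of the 47 had a peak at a gene end. The CDK inhibitors and p53 targets went the other way, with more locus peaks at 8 of 17 and fewer at 4, but the list had 1 gained and 20 lost peaks. All 14 of their gene-end peaks were kept. In the BCL2 family 7 of 15 had fewer (46.7%) and 2 had more (13.3%), with 62 and 44 peaks in all, yet all 10 gene-end peaks were kept. Of 14 myeloma drivers 8 had fewer (57.1%) and 5 had more (35.7%), both above the shares of all genes.

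Stress response genes had as many with more as with fewer peaks, 9 of 19 each, and 3 of 17 lost the gene-end peak (17.6%), near the 17.3% of all genes. SESN2 lost a peak of 267 reads, CHAC1 one of 123 and TRIB3 one of 43, and CHAC1 and TRIB3 had no peak left at the locus, after 3 and 5. In the NF-kB pathway 7 of 17 had fewer (41.2%) and 5 had more (29.4%), against 30.1% and 20.6% of all genes. RELB went from 6 locus peaks to 1 and lost its gene-end peak of 175 reads, and TRAF3 and NFKBIZ lost theirs too. Among AP-1 and MAF factors 6 of 15 had fewer and 1 had more. FOSB lost a gene-end peak of 186 reads, and its strongest shared peak had 1118 reads with DMSO and 322 with ATRA+POM.

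Kinase and chromatin genes had a few loci with many gains. Of 14 PI3 kinase and growth factor receptor genes 7 had more and 5 had fewer. PIK3CG, the gamma catalytic subunit, went from 3 peaks to 10, and its strongest gained peak had 1391 reads and a fold of 149 (chr7:106857907-106860847). Among 22 chromatin regulators 10 had more (45.5%) and 8 had fewer (36.4%). HDAC5, a class IIa histone deacetylase, went from 3 to 19. Its 15 gained peaks lay in one stretch of 17.9 kb (chr17:44078388-44096311) with 25 to 76 reads each, and the POM list overlapped all 15. The shared peak at the gene's end had 717 reads with DMSO and 156 with ATRA+POM. At Wnt genes 7 of 20 had fewer and 4 had more, at adhesion and homing genes 6 of 18 and 4, and at death receptors and ligands 5 of 10 and 4.

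The housekeeping lists give a scale for these counts. Of 30 cytosolic ribosomal protein genes 13 had fewer locus peaks and 10 had more, and 1 of 28 lost the gene-end peak. Among the 10 housekeeping controls 4 had fewer and 2 had more. ACTB, the beta-actin gene, went from 4 peaks to 0, its strongest DMSO peak having 126 reads. B cell and germinal centre genes were at 3 of 12 each way, and myeloid markers at 1 of 10 each way.

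The strongest gained peaks lay between genes or deep inside them. The strongest of all was 14.7 kb from CD1D (chr1:158161946-158164716), with 2243 reads and a fold of 84.3, and neither the POM nor the ATRA list had it. The next were 5.91 kb from PIK3CG, inside AIG1 (1399 reads) and 107 kb from NFIB (1112 reads). Those nearest to LRRC4C, MED10, PPP1R13B, RP1 and STIM2 had 919 to 994 reads, and the POM list held each of those named here after CD1D. The strongest lost peak was 68.9 kb from ANKRD7 (chr7:118310113-118313142), with 2327 reads and a fold of 81.2. VPS37A, BAMBI, SOX5, GUCY2F, LMO3, RCC2, FZD2, PRKG1 and PRAG1 were nearest to the other 9, with 811 to 1232 reads. The ATRA list held all 10 and the POM list 6 of them. FZD2, at 0.594 kb, was the only one of these within 1 kb of a gene end.

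The median gap from a gained peak to the nearest DMSO peak was 21.3 kb, and 11.9% were within 500 bp of one, while lost peaks had a median gap of 10.7 kb to the nearest ATRA+POM peak and 20.8% within 500 bp. Of gained peaks 56.2% were within 12.5 kb of another gained peak, in 2568 groups, and of lost peaks 59.3%, in 5329 groups. Among shared peaks, counted in the same way, the share was 79.6% with ATRA+POM and 66.7% with DMSO, so private peaks were not the more grouped class. The largest gained group held 18 peaks at NXT1 and GZF1 (chr20:23326957-23368861), and a second of 15 peaks lay beside it (chr20:23283466-23309939), all of 12 to 183 reads and none in the POM or ATRA list. A pair of groups of 11 peaks lay on either side of the centromere of chromosome 16 (chr16:34573034-34595253 and chr16:46388543-46401734), with 102 to 656 and 208 to 1203 reads, also absent from both other lists. Regions near centromeres were not filtered out here, so these groups are not read as ordinary gains. The largest lost groups were at EDEM3 (17 peaks), a gene of protein quality control in the endoplasmic reticulum, IQCB1 and EAF2 (14), TGFBR2 (11), BMP6 and TXNDC5 (11) and ATOSA (10).

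The genes with the most gained or lost peaks were mostly long. LRRC4C gained 18, KCNMA1 and ROBO2 16 each, HDAC5 15 and CPEB3 14. PCDH15, a cadherin gene of 1825 kb, lost 25 and went from 29 to 6 peaks, ARHGAP26 and NAALADL2 lost 19 each, and CAST and CDK6 18 each. CDK6, the cyclin-dependent kinase of the G1 phase, had 34 peaks with DMSO and 28 with ATRA+POM. Across chromosomes the gained share was lowest on chromosome 19 (13.9%, interval 12.2 to 15.7), 17 (16.9%) and 22 (18.9%) and highest on 21 (27.3%). The lost share ran only from 40.6% on chromosome 15 to 47.3% on chromosome 4. The median log2 ratio at shared peaks was also lowest on chromosome 19, at −0.83, against −0.38 on chromosomes 3 and 4.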

How the data were processed

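Peak lists of 1 DMSO and 1 ATRA+POM ChIP library of OPM-2 cells were compared, with the POM and ATRA lists as a side reference and the 4 input samples not analysed here. Per the submitters' processing notes the files use hg38. Antibody, aligner and caller: not given in the sources used here. The authors gave 1 list per library. In the deposited columns the score equals the −log10 p multiplied by 10 and truncated. The deposited fold enrichment is a ratio of summit to local background, and the −log10 p and −log10 q are the authors' values. Fold and p give the summit reads under a Poisson model, whole within 0.02 for 100% of DMSO and of ATRA+POM peaks, and the lowest local background per base gave the relative depth. This is an inference from the values.

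Only chromosomes 1 to 22 and X entered, so 151 DMSO and 157 ATRA+POM peaks were left out. No other regions, such as those near centromeres, were masked. Overlap of at least 1 bp made a peak shared. Distances ran from the midpoint to the nearest annotated end of 19974 protein-coding RefSeq genes. With 1 library a side no test was made and no p-value is given, and shares carry 95% Wilson intervals. Named genes are the 10 strongest private peaks of each class, the 5 genes and the 5 groups with the most, the 5 strongest gene-end changes, up to 4 members per list and direction, the 5 highest and lowest ratios, the 3 widest peaks and a fixed set of retinoid, cereblon and plasma cell genes, less items that are not reported here. Others named at loci (EXOC6B, CYP26C1, DHRS9, MEIS1, TGM2, NRIP1, IDO1, ZBTB16, GCNT3, DYRK4, TMEM9, NTN5, CENPM, SMIM45) were chosen after their values were seen, as were the extra receptor hexamers, their repeats and the overlap rule at gene ends. The members and the 28 gene lists were chosen with earlier results of these data known. In each of 4 lists 1 symbol was not matched and is not counted. Overlaps and coverage were tested on simulated data against bedtools, and the recovery of reads on simulated reads. Software: Python 3.11.15 with pandas 2.3.3, scipy 1.17.1, matplotlib 3.10.9 and numpy 2.4.6.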

Additional observations from a re-analysis of the deposited data

How the results depend on the processing

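Of 91 recomputed values 41 stayed within 1.5 times (counts) or within the 95% interval of the main value, and 50 did not. Values below are for gained, lost and shared ATRA+POM peaks in that order. With the stronger 50% of each list, counts were 6097, 10526 and 17500 (25.8% and 41.3% of the lists private), shares at a gene end 3.28%, 33.0% and 30.5%, median widths 518, 726 and 792 bp, and median distances 54.4 kb (gained) and 9.69 kb (lost). With a fold of at least 10, counts were 4552, 10886 and 13890, shares 4.70%, 35.2% and 34.5%, widths 620, 795 and 888 bp and distances 48.2, 6.64 and 5.16 kb. That setting gave 2800 genes with a DMSO gene-end peak alone by midpoint and 2846 by overlap, and 6 retinoid genes with more peaks. With 50% of the own width as overlap, shares were 22.6% (lost) and 30.8% (shared), widths 295, 367 and 443 bp, and distances 17.9 kb (lost) and 7.54 kb (shared). With gaps of up to 500 bp as shared, shares were 2.44%, 15.7% and 28.8%, widths 308 bp (lost) and 440 bp (shared), and distances 54.6, 26.6 and 9.48 kb. With equal numbers of peaks, lost peaks had 20.6% at a gene end and a width of 328 bp. A window of 3000 bp gave shares of 7.06%, 27.2% and 40.8% and 311 gained genes by overlap. Overlap in place of the midpoint, an alternative added after seeing the data, gave 179 genes in place of 485. The median log2 ratio was −0.55 with summits within 10 bp and −0.77 for summit reads. Gained peaks had the lowest share at gene ends in all settings run, while lost peaks passed shared ones with the stronger 50% and with a fold of at least 10. In both of those settings a peak also counted as private when its counterpart missed the cut, so they do not order peaks without any counterpart. No paired analysis was possible because each treatment had 1 ChIP library. The part of depth was not tested, and no list could be checked against a replicate.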

Other observations

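Hairpins of microRNAs were a set of loci outside the gene lists. Of 1558 annotated hairpins, 191 had a DMSO peak and 153 an ATRA+POM peak within 1 kb, 140 had both, 13 (0.834%) had one with ATRA+POM alone and 51 (3.27%) had one with DMSO alone. The strongest gains were weak, at MIR5193 (74 reads), and included MIR137 and MIR223 at 38 reads each. MIR223 is the myeloid microRNA gene, and MIR137 is best known from brain. The strongest losses were at MIR130B (358 reads) and included the neighbours MIR141 and MIR200C (136 reads each), known from epithelial cells. These hairpins were chosen after their values were seen. Mature sequences from RefSeq follow, 5′ to 3′, with the seed (bases 2 to 8) in capitals, for 2 hairpins that gained and 2 that lost a nearby peak.
hsa-miR-137-3p: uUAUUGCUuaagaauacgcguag
hsa-miR-223-3p: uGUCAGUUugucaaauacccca
hsa-miR-130b-3p: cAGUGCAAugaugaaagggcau
hsa-miR-200c-3p: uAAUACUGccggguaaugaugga
A peak near a hairpin does not show that the microRNA was made or changed.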
